A study of Mus musculus with 6 samples.

Results

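Cytochrome P450 genes encode haem enzymes that oxidise fatty acids, steroids, retinoids and foreign compounds. The members were every probe that is not a control and whose gene name in the scanner output starts with Cyp, a number and a letter, which gave 89 genes measured by 112 probes of 60 bases, out of 36282 targets and 55681 probes. Cyp1a1, Cyp1a2, Cyp1b1, Cyp2r1, Cyp24a1, Cyp27a1 and Cyp27b1, the family 1 genes and those of the vitamin D pathway, were left out of the set. RNA came from the skin of C57BL/6 mice aged 6 to 8 weeks and labelled male, 3 per group, each hybridised in 1 colour to its own Agilent array. All 6 animals had their backs shaved. Starting 2 days afterwards, the UVB group received ultraviolet B light at 180 mJ/cm2 under anaesthesia, 3 times a week over 2 weeks, while the control group was kept in the dark. No genetic change or other agent is given for either group, and the labels do not say how long after the final exposure skin was taken. Anaesthesia is given for the UVB group alone, so its part and that of the light cannot be told apart.

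A P450 enzyme sits in the membrane of the endoplasmic reticulum or the mitochondrion and receives electrons from a partner protein, P450 oxidoreductase or ferredoxin, to insert an oxygen atom into its substrate. Families 1 to 3 are known mostly for foreign compounds and for arachidonate epoxides, family 4 for the hydroxylation of the far end of fatty acids, and the higher families for steroids, bile acids and retinoic acid. In skin, P450 enzymes are known to make lipids of the permeability barrier and to set local levels of retinoic acid, which controls keratinocyte differentiation.

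Levels are given as log2 of the processed signal minus the 75th percentile of the same array, so that 0 is that percentile. Levels of different probes are not read as amounts of transcript. They are set side by side in sums of marker lists and in choosing a gene's probe and the genes of highest mean signal. A probe was tested where 3 or more of the 6 arrays read it well above background, and the tested probe with the highest mean stood for its gene. Between 54.9% and 63.3% of spots that were not controls stood well above background per array, none was saturated, and the 3 arrays per group limit the precision of every value. The 6 arrays lay on 1 slide. The sex label was not borne out. All 7 probes of 6 Y-linked genes (Ddx3y, Eif2s3y, Uty, Kdm5d, Zfy1 and Usp9y) were at background on all 6 arrays (-7.41 to -6.19), while both probes of Xist, the transcript that silences an X chromosome in females, were well above background on all of them (-0.43 to 1.18). This held in both groups, and the animals are therefore not called male here.

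Markers of skin cells were present, and several moved with the treatment. Summed over each list on the linear scale, in multiples of the 75th percentile, 7 growing hair follicle markers ranged from 16.0 to 19.2 in controls and from 269 to 1017 after UVB, with 6 of the 7 higher. The control sum was mostly Krt85 (log2 levels of 3.90, 3.77 and 4.19), which differed by -0.49 ± 0.21 without passing (limma adjusted p = 0.169). Krt71 was the largest member over all arrays, and without it the sum was 15.1 to 19.1 and 151 to 574. The 6 suprabasal and cornified markers ranged from 1250 to 1677 in controls and from 2500 to 3022 after UVB, with 4 higher. Of 5 basal markers 2 were lower (1303 to 1593 against 1293 to 1432). Of 5 tested fibroblast markers 3 were higher, and the 6 measured summed to between 4.81 and 11.4 in controls and between 16.4 and 24.5 after UVB. Macrophage markers went both ways, with 2 of 4 tested lower and 1, Lyz2, higher. Their sum, 18.1 to 19.8 in controls and 5.42 to 8.08 after UVB, was mostly Csf1r, and without it 0.683 to 0.863 and 0.267 to 0.364. Adipocyte markers did so too, with 2 of 6 tested higher and 1, Cidec, lower. Their sum of 0.690 to 2.22 and 6.32 to 28.4 rested on Fabp4, and without it was 0.520 to 1.37 and 0.552 to 0.691. None of 7 tested sebaceous gland markers passed, 6 of them had values below 0 (median -0.75), and Far2 was at background on every array. Their sum of 534 to 570 and 542 to 687 was mostly Krt79, and without it 16.7 to 41.2 and 12.4 to 21.3. None of 4 tested skeletal muscle markers passed (0.412 to 1.94 against 0.242 to 0.731), and Mylpf was at background on every array. Many P450 genes are best known from liver. Of 7 hepatocyte markers Alb, Apoa1, Fgb and Apoh were at background on every array. Tat and Serpina1a were well above background on all 6 arrays and Ttr on 2. The list summed to between 0.543 and 0.586 in controls and between 0.507 and 0.703 after UVB. Whether a share of the P450 differences below comes with these shifts was not tested, and in whole skin fewer cells of a type and less RNA per cell cannot be told apart.

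Of the 89 genes, 51 could be tested, and 44 of these stood well above background on all 6 arrays. For 33 of the 38 others no probe stood out on any array, and for Cyp2ab1, Cyp2d34, Cyp4a12a, Cyp4a14 and Cyp4f41-ps it did so on 1 array. Genes that could not be tested included Cyp7a1 and Cyp8b1, which make bile acids in liver, Cyp11a1, Cyp11b1 and Cyp11b2 of adrenal steroid synthesis, and Cyp26a1 and Cyp26c1, which break down retinoic acid. The 43 probes that were at background on every array had a median level of -7.13 in controls and of -6.57 after UVB, a median difference of 0.55, against 0.54 over all 18532 such probes on the arrays. An apparent rise of a dim gene can hold that offset.

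After UVB, 6 P450 genes were higher and 2 were lower (limma, Benjamini-Hochberg adjusted p under 0.05 over 24453 targets). Those 6 are 11.8% of the 51 tested, where 5.55% of all targets were higher, and those 2 are 3.92%, where 7% of all targets were lower. Taken in both directions, 8 genes or 15.7% passed, near the 12.6% of all targets. The median log2 fold change of the tested P450 genes was -0.17 and that of all targets was -0.04, with 23 P450 genes above 0 and 28 below. That median was 0.08 with another background correction (normexp) and 0.22 with no filter on dim probes, so it carries no settled sign. The split of 6 higher and 2 lower became 5 and 3 with quantile scaling and with the deposited table, 3 and 3 with median scaling, 8 and 5 with normexp, and 6 and 5 with trend and robust eBayes. Leaving out control 1, 2 or 3 in turn gave 2 higher each time, with 4, 2 and 5 lower. Leaving out UVB 1, 2 or 3 gave 2, 1 and 4 higher, with 2, 2 and 3 lower. For 26 of the 51 genes (51%) the groups did not overlap, where 38.5% of all targets did not overlap. UVB lay above control in 11 of them (21.6% of the 51), where 15.9% of all targets did so, and below in 15 (29.4%), where 22.6% did so.

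**Figure D1:**
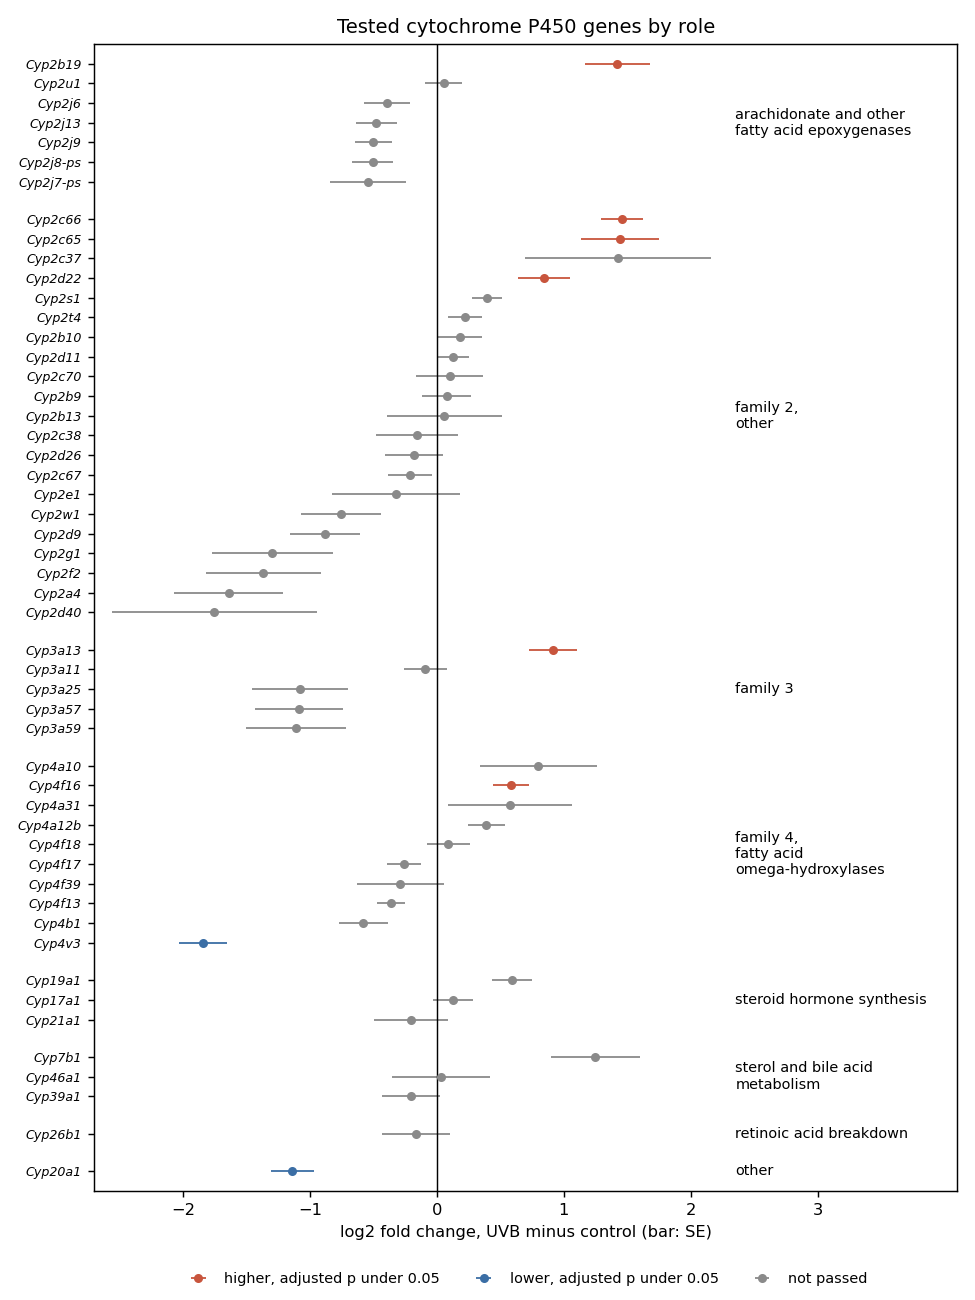
Log2 fold change of UVB over control for each of the 51 tested cytochrome P450 genes, grouped by role, with limma standard errors as bars and 3 arrays per group. The 6 genes that were higher and the 2 that were lower are coloured, and all 5 tested Cyp2j genes lie below 0 without passing (the mean of its probes put Cyp2j13 at 0.03).

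Epoxygenases turn arachidonate into signalling epoxides. The list used here held Cyp2b19, the Cyp2j genes and Cyp2u1, a fatty acid hydroxylase, so it is not a list of epoxygenases alone. Its tested genes include Cyp2j7-ps and Cyp2j8-ps, whose names mark pseudogenes. Of its 7 tested genes 1 was higher and none was lower. Over all targets 5.55% were higher and 7% lower, and groups this small, here and below, give no firm share. Cyp2c65 and Cyp2c66, also known as epoxygenases, are counted with the other family 2 genes and were both higher. Cyp2b19 is known in the mouse as an epoxygenase of differentiating keratinocytes. Its log2 level was 1.98, 2.24 and 2.62 on the control arrays and 3.39, 3.57 and 4.14 on the UVB arrays. Every UVB array stood above every control array. The log2 fold change was 1.42 ± 0.25 (SE, n = 3 per group, limma adjusted p = 0.0209), a 2.68-fold rise. Without control 1, control 2 or UVB 2 the adjusted p was 0.0574, 0.0804 and 0.0518. The suprabasal markers Ivl, Lor, Flg and Krt2, proteins of the cell envelope and filaments of upper keratinocytes, rose as well, by 1.61 ± 0.15, 0.76 ± 0.15, 3.70 ± 0.75 and 4.62 ± 0.68 (limma adjusted p = 0.00391, 0.0274, 0.0295 and 0.0126). Their part in the Cyp2b19 result was not tested. The Cyp2b19 probe lies on chromosome 7 at 27557545 to 27557604 (plus strand, mouse build mm9). It is shown because it was the 1 probe among the 8 that passed to which other probes came within the limit of likeness given after it.
Cyp2b19 probe: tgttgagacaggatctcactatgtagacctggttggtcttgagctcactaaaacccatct
Of 55680 other probes, 2 matched it at 70% or more over at least 45 bases, the nearest at 32 of 45 bases. That search covered the probes of the array and no other transcript sequence, so it cannot show that the probe reads Cyp2b19 alone. Whether other transcripts add to its signal was not tested.

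The 5 tested Cyp2j genes, relatives of the human epoxygenase CYP2J2 that lie in a row on chromosome 4, all had log2 fold changes below 0, from -0.54 for Cyp2j7-ps to -0.39 for Cyp2j6, as under every scaling tried, except that the mean of its probes put Cyp2j13 at 0.03. The groups did not overlap for Cyp2j6, Cyp2j8-ps, Cyp2j9 and Cyp2j13, and none of the 5 passed. Over all targets 38.5% did not overlap, and 22.6% did so with UVB below. Cyp2j8-ps and Cyp2j9 passed with normexp (-0.52 and -0.47, limma adjusted p = 0.0383 and 0.0426) and with trend and robust eBayes (limma adjusted p = 0.043 and 0.0355). Cyp2j8-ps had a second tested probe that was well above background on the 3 control arrays (-4.17, -3.41 and -3.37) and on no UVB array (-5.06, -6.24 and -5.23). By that probe the gene was at least 1.70-fold lower after UVB, given as a description, since the probe entered the test through the control arrays alone. The probe that stood for the gene differed by -0.51 ± 0.16 (limma adjusted p = 0.0894), and the mean of both probes by -1.18. Such a bound takes the mean of the higher group over the mean, per array, of the larger of the lowest signal called well above background and the dim probe's own. The probes of Cyp2j13 disagreed in sign, at -0.48 ± 0.16 (limma adjusted p = 0.101) for the one that stood for the gene and 0.53 ± 0.24 for the dimmer one, which was well above background on 4 arrays.
Cyp2u1, which hydroxylates long-chain fatty acids including arachidonate, had levels of 7.11, 6.83 and 6.87 in controls and 6.81, 7.01 and 7.16 after UVB. Its groups overlapped and the difference of 0.05 ± 0.15 did not pass (limma adjusted p = 0.835).

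Of 21 other tested family 2 genes, which include drug-metabolising and odorant-metabolising enzymes, 3 were higher and none was lower. Cyp2c66 and Cyp2c65, neighbours on chromosome 19 known in the mouse as arachidonate epoxygenases of the intestine, were among the 3. Cyp2c66 stood at -3.05, -3.49 and -3.53 in controls and at -2.01, -1.85 and -1.82 after UVB. The groups lay far apart, and the UVB arrays were closer to each other than the controls were. It rose by 1.46 ± 0.17 on the log2 scale (SE, n = 3 per group, limma adjusted p = 0.00606), or 2.75-fold, and kept its call whichever array was left out, though normexp gave 0.91. Cyp2c65 stood at -4.60, -4.62 and -5.05 in controls and at -2.71, -3.39 and -3.85 after UVB. Its lowest UVB array was above its highest control array, and control 3 was not well above background. It rose by 1.44 ± 0.31 (limma adjusted p = 0.0321), or 2.72-fold, and by 0.75 with normexp. It kept its call without UVB 3, and without any other single array its limma adjusted p ran from 0.0627 to 0.0952. The Cyp2c66 probe spans 39261183 to 39261242 and the Cyp2c65 probe 39167981 to 39168040 of chromosome 19 (plus strand, mm9). Both are shown because the genes are near copies.
Cyp2c66 probe: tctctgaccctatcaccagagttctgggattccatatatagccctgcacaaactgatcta
Cyp2c65 probe: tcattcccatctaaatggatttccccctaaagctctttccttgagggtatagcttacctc
No other probe on the array matched either at 70% or more over at least 45 bases, and the nearest were at 61.7% and 60%.

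The promoters of these 2 genes were alike, and were not compared in this way with those of their neighbours. Over the 250 bases before and 50 after each start given by RefSeq (GRCm38.p6), 256 of 271 paired bases were identical (94.5%), with 22 bases in gaps. Capitals mark TATAAA, which was searched on both strands (as TTTATA on the other strand) and whose first base was found at -162 from the start of Cyp2c65 and at -150 from that of Cyp2c66.
Cyp2c65 promoter: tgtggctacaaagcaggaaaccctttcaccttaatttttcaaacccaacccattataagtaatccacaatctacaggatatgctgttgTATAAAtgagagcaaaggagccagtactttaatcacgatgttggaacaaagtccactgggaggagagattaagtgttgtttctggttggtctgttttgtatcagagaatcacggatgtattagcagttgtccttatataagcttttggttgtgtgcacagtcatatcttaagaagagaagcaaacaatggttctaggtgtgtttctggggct
Cyp2c66 promoter: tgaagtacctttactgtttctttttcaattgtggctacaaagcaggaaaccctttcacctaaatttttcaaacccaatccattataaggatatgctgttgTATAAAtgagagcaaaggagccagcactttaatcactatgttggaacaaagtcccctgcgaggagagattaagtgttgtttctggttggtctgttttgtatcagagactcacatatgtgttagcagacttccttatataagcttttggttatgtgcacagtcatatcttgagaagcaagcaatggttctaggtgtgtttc
The windows lie on the plus strand of chromosome 19 at 39060756 to 39061055 and at 39113648 to 39113947. The motif was in 13.6% of 32851 promoters of this length and in 28 of the 70 promoters of P450 genes in the table (40%). The P450 genes with it included the tested neighbours Cyp2c38, Cyp2c67 and Cyp2c70, none of which passed. AGGTCA, the core letters bound by many nuclear receptors, was searched likewise on both strands (on the other as TGACCT) and was in neither window. It was in 16.3% of all promoters and in 20 of the 70 P450 promoters (28.6%), including that of Cyp2b19. These matches describe letters only.

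The neighbours of these genes did not pass. Cyp2c37 stood at -1.68, -1.88 and -3.99 in controls and at -1.37, -1.84 and -0.05 after UVB, with overlapping groups and a difference of 1.43 ± 0.73 (limma adjusted p = 0.237). Control 3 was low and UVB 3 high. Cyp2c38, Cyp2c67 and Cyp2c70 differed by -0.16, -0.21 and 0.10. The probe of Cyp2c67 was well above background on all 6 arrays and that of Cyp2c68 on none, although 55 of 59 overlapping bases were the same (capitals mark the bases that differ within the overlap).
Cyp2c67 probe: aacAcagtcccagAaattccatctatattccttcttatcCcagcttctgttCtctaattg
Cyp2c68 probe: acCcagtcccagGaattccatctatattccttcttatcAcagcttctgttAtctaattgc

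Cyp2d22, a drug-metabolising enzyme of the 2D subfamily, was the other family 2 gene that was higher. Its levels were -2.57, -3.13 and -3.10 in controls and -2.30, -2.12 and -1.86 after UVB. The gap between control 1 and UVB 1 was small. The log2 fold change was 0.84 ± 0.20 (limma adjusted p = 0.0466), or 1.79-fold, and the gene still passed without control 1, but lost its call without any other single array (limma adjusted p of 0.0853 to 0.151). Of the other tested genes of its row, Cyp2d11 differed by 0.13, and Cyp2d26, Cyp2d9 and Cyp2d40 had values below 0, none passing. Cyp2d40 stood at -2.77, -3.82 and -2.86 in controls and at -4.00, -3.91 and -6.80 after UVB, and UVB 3, at background, set much of its difference of -1.75 ± 0.81 (limma adjusted p = 0.194). Without UVB 3 that difference was -0.80. Cyp2d9, a male-predominant steroid hydroxylase of mouse liver, was well above background on the 3 control arrays (-3.74, -4.81 and -4.15) and on no UVB array (-4.96, -5.11 and -5.27). It was at least 1.13-fold lower and did not pass (limma adjusted p = 0.0866). It entered the test through the control arrays alone, and its sign turned with normexp (0.14).

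**Figure D2:**
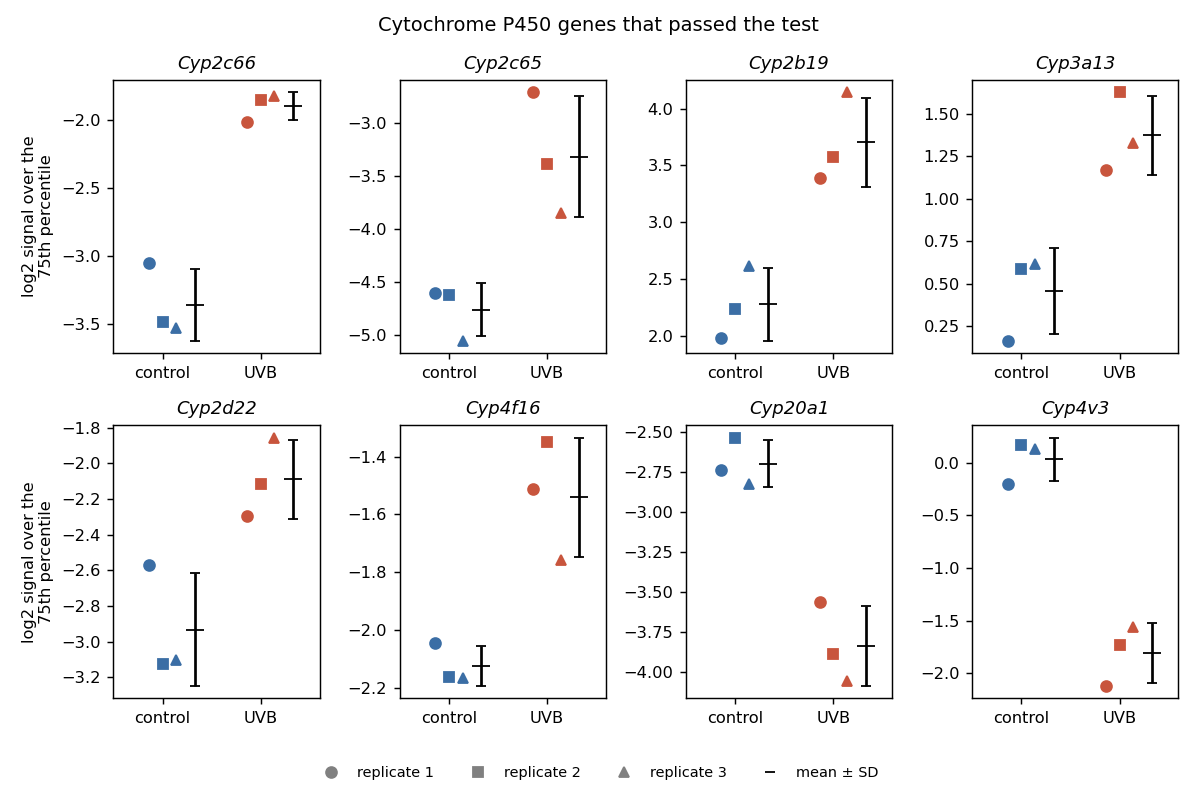
Log2 level over the array's 75th percentile on each of the 6 arrays for the 8 cytochrome P450 genes that passed, with the mean and SD of 3 arrays per group beside the points. Groups do not overlap in any panel, and vertical axes differ between panels and do not start at 0.

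Cyp2a4, Cyp2f2 and Cyp2g1, from the P450 row of chromosome 7 that also holds Cyp2b19, were lower in mean without passing. Cyp2a4, a steroid hydroxylase, stood at -0.76, -1.0 and -2.39 in controls and at -2.87, -2.89 and -3.31 after UVB (difference -1.64 ± 0.43, limma adjusted p = 0.0567). Cyp2f2, which activates naphthalene in mouse lung, stood at 1.15, 1.18 and -0.50 in controls and at -0.79, -0.72 and -0.75 after UVB (difference -1.37 ± 0.45, limma adjusted p = 0.0984). Cyp2g1, an enzyme of the olfactory mucosa, stood at 5.65, 5.55 and 4.09 in controls and at 4.35, 3.29 and 3.75 after UVB (difference -1.30 ± 0.48, limma adjusted p = 0.125). In all 3 genes control 3 lay near the UVB arrays and apart from controls 1 and 2. Without control 3 each of them was lower and passed, at -2.14, -1.92 and -1.80 (limma adjusted p = 0.0095, 0.00635 and 0.038). None of them passed with any other single array left out (limma adjusted p up to 0.169, 0.254 and 0.302). Control 3 was singled out with the values in view. Of the controls, control 3 also had the highest suprabasal marker sum (1677 against 1253 and 1250) and the lowest skeletal muscle sum (0.412 against 1.35 and 1.94). Its sums were also the highest for sebaceous, growing hair follicle and hepatocyte markers and the lowest for fibroblast (4.81 against 5.94 and 11.4) and macrophage markers. For basal and adipocyte markers it lay between the others. The part of any of these in the levels of the 3 genes was not tested. Cyp2a4 also passed with quantile scaling, median scaling and the deposited table (limma adjusted p = 0.0453, 0.0336 and 0.0455). Its 2 probes had the same sign.

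Cyp2b10, the mouse gene best known as a target of the receptor CAR, stood at 4.56, 4.64 and 4.89 in controls and at 4.60, 5.09 and 4.94 after UVB. The groups overlapped, with a difference of 0.18 ± 0.17 (limma adjusted p = 0.528). Cyp2s1, whose human counterpart is known to metabolise retinoids in skin, stood at 2.52, 2.66 and 2.45 in controls and at 3.00, 2.86 and 2.95 after UVB. Its groups did not overlap, and the difference of 0.39 ± 0.12 did not pass (limma adjusted p = 0.0767).

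In family 3, the steroid and drug oxidising enzymes, 1 of 5 tested genes was higher and none was lower. Cyp3a13, a member of the family expressed outside the liver, stood at 0.17, 0.59 and 0.62 in controls and at 1.17, 1.63 and 1.32 after UVB. Every UVB array was above every control array. It rose by 0.92 ± 0.19 (limma adjusted p = 0.0299), or 1.89-fold, but lost its call whichever of the 6 arrays was left out (limma adjusted p of 0.058 to 0.086), and its second probe gave 0.35 ± 0.13 without passing (limma adjusted p = 0.129 over all probes). The 4 tested genes of the separate Cyp3a row on chromosome 5 had values below 0, except that Cyp3a11 was at 0.14 with normexp, where Cyp3a57 passed at -0.86 (limma adjusted p = 0.0411). Cyp3a59 stood at -2.44, -1.34 and -0.97 in controls and at -2.33, -2.99 and -2.76 after UVB (difference -1.11 ± 0.40, limma adjusted p = 0.116). Cyp3a57 and Cyp3a25 differed by -1.09 ± 0.35 and -1.08 ± 0.38 (limma adjusted p = 0.092 and 0.112). In these 3 genes control 1 lay at the level of the UVB arrays while controls 2 and 3 were higher. This is a different control array from the one that stood apart on chromosome 7. Control 1 was also the lowest control for the sebaceous markers Scd3, Awat1, Awat2, Dgat2l6 and Elovl3, but not for Mc5r or Krt79. Its sum was the lowest of the controls for adipocyte markers too (0.690 against 2.22 and 1.73). It was the highest for basal (1593 against 1303 and 1408) and macrophage markers (19.8 against 19.3 and 18.1). For the remaining marker lists other than sebaceous it lay between the other controls. The part of any of these in these levels was not tested. Without control 1, Cyp3a59 and Cyp3a57 passed at -1.54 and -1.46 (limma adjusted p = 0.0349 and 0.0327). Neither passed with any other single array left out (limma adjusted p up to 0.278 and 0.237). Cyp3a11, the remaining tested gene of the row, differed by -0.09.

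**Figure D3:**
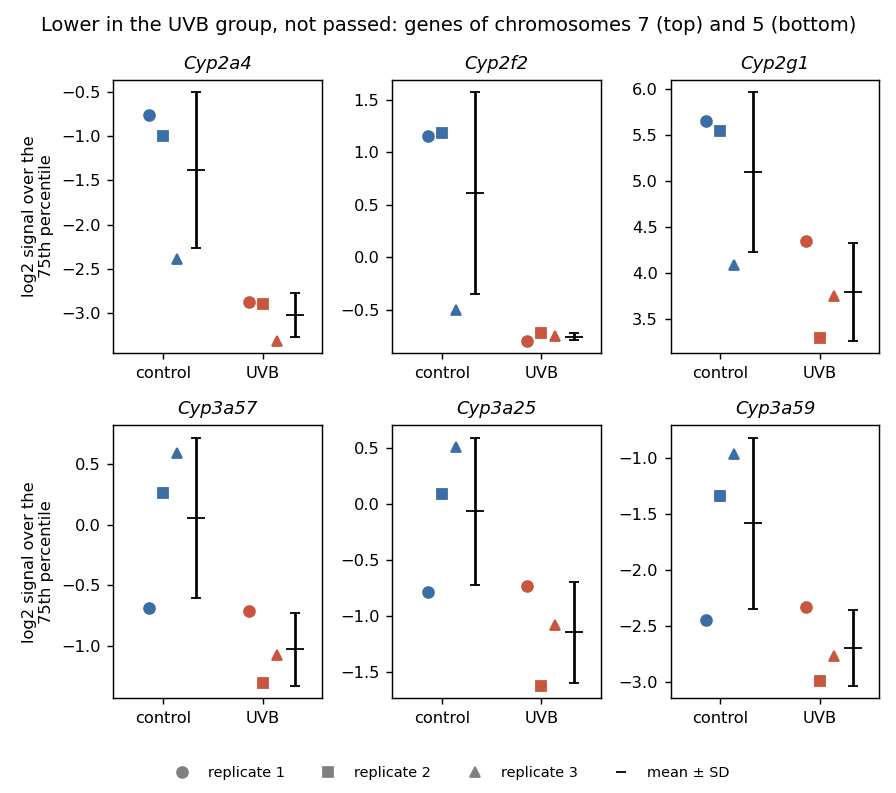
Log2 level on each array for 3 genes of chromosome 7 (top) and 3 of chromosome 5 (bottom) whose mean was lower after UVB without passing, with the mean and SD of 3 arrays per group. Control replicate 3 is the low control in the top row and control replicate 1 in the bottom row, and vertical axes differ between panels and do not start at 0.

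In family 4, the fatty acid hydroxylases, 1 of 10 tested genes was higher and 1 was lower. Cyp4v3 is the mouse counterpart of human CYP4V2, a fatty acid hydroxylase whose loss causes Bietti corneoretinal dystrophy. Its levels were -0.20, 0.17 and 0.14 in controls and -2.12, -1.74 and -1.56 after UVB. The groups were separated by more than the whole range of either. Cyp4v3 fell by 1.84 ± 0.19 on the log2 scale (SE, n = 3 per group, limma adjusted p = 0.00482), a 3.58-fold fall. It kept its call whichever array was left out (limma adjusted p of 0.00774 to 0.0258) and under all 17 alternatives, from -1.96 to -1.38. The Cyp4v3 probe, shown because this is the largest change among the 51 tested genes, lies on chromosome 8 at 46391395 to 46391454 (minus strand, mm9).
Cyp4v3 probe: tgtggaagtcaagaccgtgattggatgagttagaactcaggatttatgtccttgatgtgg

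Cyp4f16, a fatty acid and eicosanoid hydroxylase, stood at -2.05, -2.16 and -2.17 in controls and at -1.51, -1.35 and -1.76 after UVB. The groups did not overlap. It rose by 0.59 ± 0.14 (limma adjusted p = 0.0473), or 1.50-fold, and still passed without UVB 3, but lost its call without any other single array (limma adjusted p of 0.083 to 0.155). With quantile scaling, median scaling and the deposited table it did not pass (limma adjusted p = 0.0742, 0.123 and 0.0747). Cyp4f13 and Cyp4f17 of the same chromosome 17 row had values below 0 with groups that did not overlap (-0.36 ± 0.11 and -0.26 ± 0.13), and neither passed.

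Cyp4a10, a hydroxylase known as a target of the receptor PPARα, and its neighbour Cyp4a31 had probes that are much alike. Whether either probe reads the other gene's transcript was not tested. Their probes shared 44 of 47 overlapping bases, and capitals mark the bases that differ within the overlap.
Cyp4a10 probe: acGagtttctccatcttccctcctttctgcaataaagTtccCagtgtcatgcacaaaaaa
Cyp4a31 probe: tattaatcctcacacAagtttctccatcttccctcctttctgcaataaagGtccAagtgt
Cyp4a10 stood at -3.48, -2.0 and -2.27 in controls and at -1.54, -2.44 and -1.38 after UVB (difference 0.80 ± 0.46, limma adjusted p = 0.283). Its second tested probe had the opposite sign (-0.32 ± 0.38). Cyp4a31 stood at -1.82, -3.28 and -2.51 in controls and at -2.51, -2.28 and -1.10 after UVB (difference 0.58 ± 0.49, limma adjusted p = 0.468). Both pairs of groups overlapped, and control 1 was the lowest control for Cyp4a10 and the highest for Cyp4a31.

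None of the 7 tested genes of steroid hormone, sterol and retinoic acid metabolism passed. Cyp7b1, which hydroxylates oxysterols, stood at -4.34, -3.55 and -4.93 in controls and at -2.73, -3.19 and -3.15 after UVB. The groups did not overlap, and the difference of 1.25 ± 0.35 did not pass (limma adjusted p = 0.068). Without control 2 it was 1.61 and passed (limma adjusted p = 0.0405), as it did with normexp, at 0.64 (limma adjusted p = 0.0178). Without any other single array it did not pass (limma adjusted p up to 0.173). Cyp19a1, the aromatase that makes oestrogens, was well above background on 3 arrays and stood at -4.85, -4.55 and -4.80 in controls and at -4.04, -4.01 and -4.37 after UVB. Its difference of 0.59 ± 0.16 (limma adjusted p = 0.0571) was about the size of the offset of probes at background. Cyp26b1, which breaks down retinoic acid in skin, stood at 3.35, 3.34 and 3.89 in controls and at 2.93, 3.34 and 3.80 after UVB. The groups overlapped, and the difference of -0.17 ± 0.27 did not pass (limma adjusted p = 0.711). Cyp17a1, the 17-hydroxylase of steroid synthesis, stood at 3.77, 3.59 and 3.29 in controls and at 3.64, 3.77 and 3.62 after UVB, again overlapping (0.13 ± 0.16, limma adjusted p = 0.623).

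Cyp20a1, a P450 with no settled substrate, was lower after UVB. By the probe that stood for the gene its levels were -2.74, -2.54 and -2.82 in controls and -3.57, -3.89 and -4.06 after UVB. The groups were well separated. It fell by 1.14 ± 0.17 (limma adjusted p = 0.0125), or 2.20-fold. Its second probe differed by -0.45 ± 0.38 (limma adjusted p = 0.464 over all probes). The gene lost its call under 4 of the 17 alternatives, among them without control 2 (limma adjusted p = 0.056), with the mean of both probes (-0.80, limma adjusted p = 0.0845) and with normexp (-0.23, limma adjusted p = 0.157).

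**Figure D4:**
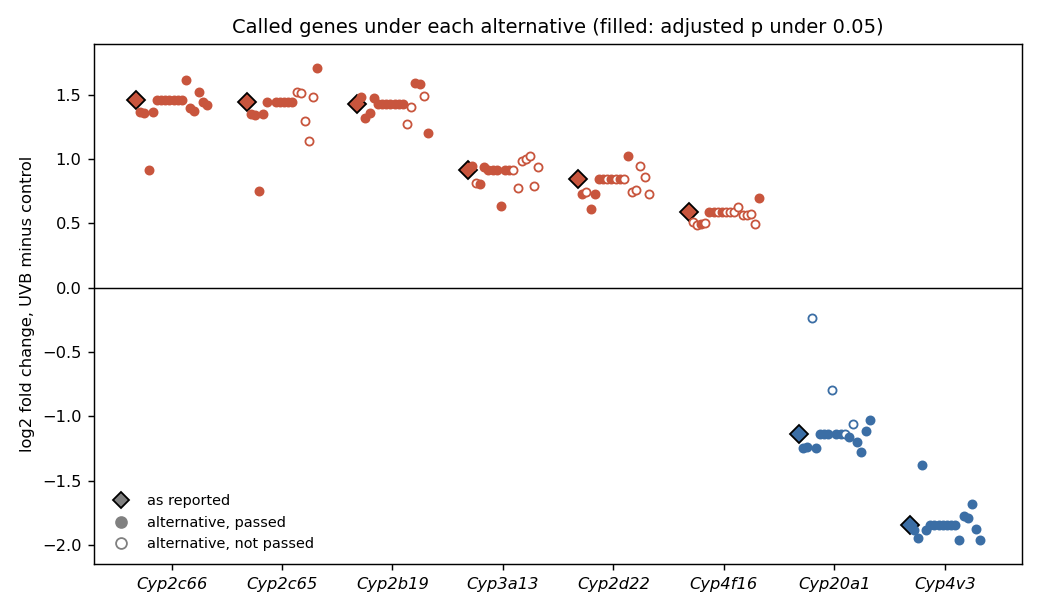
Log2 fold change of the 8 genes that passed, as reported (diamonds) and under each alternative processing or with 1 array left out (circles), filled where the adjusted p was under 0.05. Cyp2c66 and Cyp4v3 are filled throughout, and Cyp3a13, Cyp2d22 and Cyp4f16 are open under many alternatives.

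Genes that serve P450 enzymes showed no rises that passed. Over all targets 5.55% were higher and 7% lower, and lists this short, in this part and the next ones, give no firm share. Of 9 tested genes of electron transfer, 2 were lower. Cyb5r3, the reductase of cytochrome b5, fell by 1.09 ± 0.11 (limma adjusted p = 0.00487), and kept its call whichever array was left out. Cyb5b, an outer mitochondrial membrane cytochrome b5, fell by 0.61 ± 0.14 (limma adjusted p = 0.0422) but lost its call whichever of the 6 arrays was left out (limma adjusted p of 0.0659 to 0.139). Por, the P450 oxidoreductase itself, differed by 0.01 ± 0.21 (limma adjusted p = 0.985).

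Of 13 tested genes of haem synthesis and breakdown, 3 were lower and none was higher. Among the 3, Alad and Urod, both enzymes of haem synthesis, fell by 0.80 ± 0.14 and 0.76 ± 0.13 (limma adjusted p = 0.0218 and 0.0187). With 1 array left out, Alad still passed only without UVB 3, and Urod only without control 1, UVB 2 or UVB 3 (limma adjusted p up to 0.0931 and 0.0788 otherwise). Hmox1, which breaks haem down, stood at 1.47, 1.41 and 1.41 in controls and at 3.38, 2.23 and 2.07 after UVB. Its groups did not overlap, and the difference of 1.13 ± 0.34 did not pass (limma adjusted p = 0.0808).

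Of 15 tested nuclear receptors known to control P450 genes, 3 were lower and none was higher. Pparg, the receptor of fat and sebaceous cell differentiation, fell by 1.53 ± 0.16 (limma adjusted p = 0.00514). Of tested sebaceous markers 6 of 7 were below 0 without passing, and of adipocyte markers Cidec was lower and Fabp4 and Lipe were higher. The part of either list in the fall of Pparg was not tested. Ppara, the fatty acid receptor, fell by 1.33 ± 0.17 (limma adjusted p = 0.00835). Both kept their calls whichever array was left out. Nr1h3, an oxysterol receptor, fell by 1.07 ± 0.19 (limma adjusted p = 0.0213) and, with 1 array left out, kept its call only without control 3 or UVB 3 (limma adjusted p up to 0.0808 otherwise). Macrophages also express Nr1h3, and of their tested markers Csf1r and Adgre1 were lower, Lyz2 was higher and Mrc1 differed by -0.01. Their part in that result was not tested. None of 5 tested epoxide hydrolases and P450 genes named otherwise passed, with values from -0.47 to 0.33. The medians of the 4 lists were -0.16, -0.19, -0.01 and 0.03 in the order given, against -0.04 over all targets.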

How the data were processed

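Skin RNA of 6 mice, 3 per group as given by the sample titles, was labelled with Cy3 from 0.2 µg. The authors deposited scanner output, in which, per the file headers, Agilent Feature Extraction 10.7.1.1 gave the intensity of each spot, background-corrected, detrended and not scaled between arrays. They also deposited a table of log2 values, each column of which correlated with its own array at 0.9986 or more. Its sorted columns differed by at most 0.108, and the sources used here do not give its making. It was tried in place of the scanner values.

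Here log2 of the processed intensity was taken and each array's 75th percentile (302 to 519) subtracted. Controls and outlier spots (135 to 274 per array) were left out and spots of a probe averaged. limma 3.58.1 (R 4.3.3, lmFit and eBayes, two-sided, no covariate) was fitted on 24453 targets, the steps having been tested on simulated data. Of the 112 P450 probes, 108 had an accession in RefSeq. Names are those of the files. For 6 of these probes RefSeq gives another symbol, among them that of Cyp2c44, which is Cyp2c23 in RefSeq. Genomic positions of probes are in mm9.

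The members, the gene lists and the rule for named genes were chosen with earlier results of these data known. The rule names all members that pass, the 5 largest differences in each direction that do not, the 5 of highest mean signal, those with probes of both signs and those at background in 1 group. Any further gene was picked with its values in view, and the values of 1 list gene are not reported here. Rows of neighbouring genes join probes at most 1000000 bases apart. Alternatives were quantile and median scaling, the deposited table, normexp (offset 50), 3 other filters, probe rules, eBayes with trend and robust, a replicate block and leaving out each array.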

Additional observations from a re-analysis of the deposited data

How the results depend on the processing

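For the counts and medians, median scaling gave 3 P450 genes higher and a median log2 fold change of -0.27, and moved the median of all targets from -0.04 to -0.14. Background correction with normexp gave 5 P450 genes lower, 2566 targets higher in all and a median of 0.079. With no filter, 1065 targets were lower and the P450 median was 0.22, since 89 rather than 51 genes enter. Trend and robust eBayes gave 5 P450 genes lower. A replicate block gave 3 higher and 1 lower (471 and 302 of all targets). Replicate numbers are only names here: deviations of same-numbered arrays correlated at -0.11, -0.26 and -0.08, and no array correlated best with its own number. Leaving out 1 array gave 1 to 4 P450 genes higher and 2 to 5 lower, 468 to 959 and 394 to 1065 targets in all, and medians of -0.20 to -0.029, with fewer samples in each fit. Signs turned, without passing, for Cyp2u1 (-0.025 with quantile scaling, -0.048 with median scaling, -0.026 with the deposited table, and -0.029 to 0.145 with 1 array left out, below 0 without control 2 or UVB 3), Cyp2d9 and Cyp3a11 (0.14 each with normexp), Cyp2j13 (0.028 as a mean of probes), Cyp17a1 (-0.0053 to 0.234 with 1 array left out, below 0 without control 3) and Cyp26b1 (-0.39 to 0.046, above 0 without control 3 or UVB 1). The cause was not tested. Of the other single-gene values, 589 kept sign and call, 69 lost the call and 23 gained it. Cyp2c65 could not be tested where all 6 arrays had to stand above background. Dim probes, near background, limit Cyp2c65, Cyp19a1, Cyp2d9 and Cyp2d40. Cyp7b1 and Cyp20a1 were dim as well, and normexp took them from 1.25 to 0.64 and from -1.14 to -0.23.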

Other observations

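Cyp2d34, not tested, had a probe at -6.78, -7.43 and -7.26 in controls and at -6.81, -4.84 and -4.45 after UVB, well above background on UVB 3 alone. Its other probe stood at -4.69, -5.69 and -5.54 in controls and at -6.83, -5.23 and -5.13 after UVB, and was well above background on 1 array. Cyp26a1, a retinoic acid hydroxylase at background on every array, stood at -6.92, -6.69 and -6.74 in controls and at -5.51, -6.02 and -5.46 after UVB, and passed when no filter on dim probes was used.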
